A study of Mus musculus with 4 samples.

Results

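The suppressor of cytokine signalling (SOCS) family holds 8 genes, Socs1 to Socs7 and Cish, and all 8 were found among the 20832 genes named on the arrays. A probe was taken as a member's when the RefSeq accession of its target belonged to that gene, which gave 11 probes, and the probe with the highest mean log2 signal was kept for Socs2 and Socs6, the members with several. The members were chosen by name, the probes were selected on their mean log2 signal over the 4 arrays, and the family was proposed with its genotype and pool differences on these arrays already known, so its values are given as a description. All 8 members were well above background on all 4 arrays and were among the 15551 genes tested.

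The arrays held RNA of the entire colon of STAP-2-/- mice and of wild-type (WT) mice, both on the C57BL/6J background, aged 14 weeks and given 1.75% dextran sulfate sodium (DSS), which damages the gut lining and is used to cause colitis in mice. STAP-2 is an adaptor protein that binds STAT3 and STAT5. Each array held RNA pooled from 3 mice, and there were 2 pools per genotype, numbered 1 and 2 in the labels. How long DSS was given is unsettled, since the labels state both 3 days and 7 days. Every colon had received DSS, so no untreated level of any gene is known here. In RNA of a whole organ, fewer cells of a type and less RNA per cell cannot be told apart.

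SOCS proteins are induced by cytokines and then switch the same signal off. A central SH2 domain docks on phosphorylated receptors or Janus kinases (JAKs), and a C-terminal SOCS box binds elongins and a cullin so that the target is ubiquitinated. Socs1 and Socs3 also block JAK activity directly. In the gut, Socs3 is known as a brake on IL-6 and IL-22 signalling through STAT3 in the epithelium, and Socs1 as a brake on interferon-gamma signalling.

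Values are log2 of the processed signal minus the 75th percentile of the array, so 0 is the level of the 75th percentile, and levels of different probes are not compared. That percentile lay at a processed signal of 2280 and 2348 on the STAP-2-/- arrays and of 2134 and 2215 on the WT arrays, and between 68.4% and 70.5% of the spots were well above background. The probe of Stap2, the deleted gene, read -6.63 and -7.72 on the STAP-2-/- arrays, not well above background, and 2.92 and 2.98 on the WT arrays. As for the tissue, 7 of 7 measured colon epithelium markers and 8 of 8 smooth muscle markers were well above background on all 4 arrays. The arrays lay on 1 slide, where both pools numbered 1 had positions 1 and 2 and both pools numbered 2 had positions 3 and 4, so pool and position cannot be told apart. The 2 arrays per genotype limit the precision, and p-values measure the spread between these pools. For SEs and p-values, limma drew the variance of each gene toward a value shared over all genes tested.

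Socs3 was the 1 member whose levels did not overlap between the genotypes, and it was lower in the STAP-2-/- colons. The other 7 members separated pool 1 from pool 2, as 62.4% of all genes tested did. On these arrays a gene that separates the pools must overlap between the genotypes, so their overlap is not a further observation. Among all genes tested, 13.3% were lower and 11.5% higher in STAP-2-/- colons without overlap. By limma, 0 of the 8 members passed an adjusted p of 0.05, and 0.0% of all genes tested did. The deleted gene Stap2 was among the genes tested and did not pass either. Falling short of this threshold therefore does not show that a gene was unchanged. At an unadjusted p of 0.05 the fit gave 1 member, Socs3, on the lower side, where 1.29% of all genes tested lay, and 0 members on the higher side, where 0.797% lay. The plot of the members by array shows Socs3 apart from the rest.

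**Figure D1:**
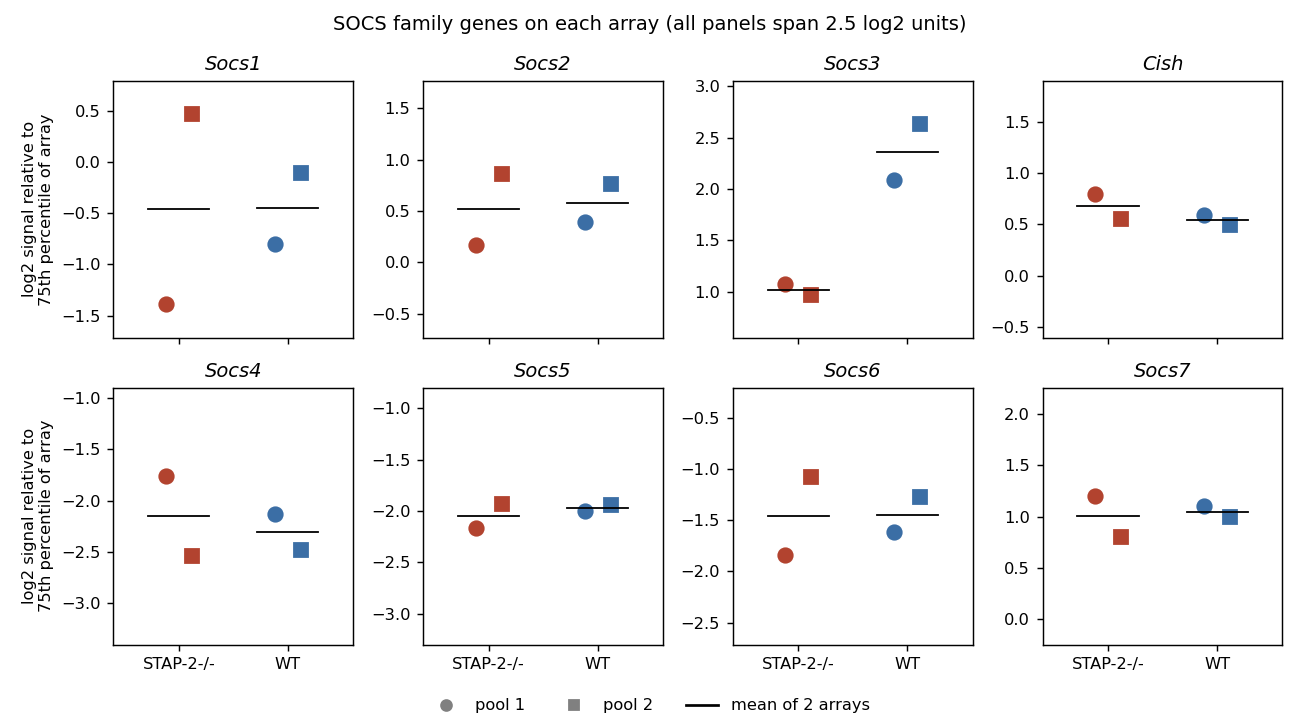
Level of each SOCS family gene (y axis, log2 signal relative to the 75th percentile of the array) in STAP-2-/- and WT colons (x axis), with 1 point per array, circles for pool 1, squares for pool 2 and a line at the mean of 2 arrays. Both STAP-2-/- points of Socs3, at 1.07 and 0.97, lie below both WT points, at 2.09 and 2.64, while in the other panels the genotypes overlap.

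Socs3 binds the gp130 receptor subunit and JAKs and is itself a target of STAT3. Its processed signal was 4790 and 4589 in the STAP-2-/- pools 1 and 2, against 9058 and 13790 in the WT pools 1 and 2. These values come from 1 probe with 1 spot per array, so no second probe or repeat spot stands beside them. Both STAP-2-/- colons were below both WT colons, and the WT arrays lay farther from each other than the STAP-2-/- arrays did. On the log2 scale Socs3 averaged 1.02 ± 0.074 in STAP-2-/- and 2.36 ± 0.39 in WT colons (SD, n = 2 each), a difference of -1.34 (SE 0.24) with an interval of -2.01 to -0.68 at 95% confidence, or 2.54-fold lower in STAP-2-/- colons. The limma adjusted p was 1.0, and 0.699 was its lowest value over the alternatives tried. Of the 15551 genes tested, 93 had a larger absolute genotype difference, and Socs3 held rank 32 by unadjusted p. Genes with no overlap that were lower in STAP-2-/- colons made up 13.3% of those tested, and 0.463% were also at least 2-fold lower. With 1 array left out the difference ran from -1.62 without WT 1 to -1.07 without WT 2.

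Within each number the Socs3 difference was -1.01 between both pools 1 and -1.67 between both pools 2. The lack of overlap between the genotypes fixes its direction here. Pool 1 minus pool 2 was 0.10 in STAP-2-/- and -0.55 in WT colons, so the pools of the 2 genotypes differed in opposite directions. Socs3 was the 1 member for which that was the case, and among all genes tested 12019 differed between the pools in the same direction in both genotypes.

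The promoter of Socs3 is shown because STAT factors bind DNA at the letters TTCNNNGAA, which read the same on both strands. RefSeq promoter windows of build GRCm38.p6, from 250 bases before to 50 after the annotated start, were found for 4 of the 8 members: Socs1, Socs3, Socs4 and Cish. In the 250 bases before the start of Socs3, on the minus strand at chr11:117969367-117969616, 1 match lay from -154 to -146 relative to the start, and it is in capitals here.
Socs3: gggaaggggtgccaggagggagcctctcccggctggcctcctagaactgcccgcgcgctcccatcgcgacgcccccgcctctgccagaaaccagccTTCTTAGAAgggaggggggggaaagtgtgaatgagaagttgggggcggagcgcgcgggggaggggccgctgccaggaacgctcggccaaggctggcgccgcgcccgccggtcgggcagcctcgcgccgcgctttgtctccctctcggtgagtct
Of the 32851 promoter windows of 300 bases, 8.30% held at least 1 such match.

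The 4 genes nearest to Socs3 in their pattern were Dnah17, Slc36a2, Mirg and Capn6, among 14354 genes tested, well above background on all 4 arrays and with a symbol other than that of a predicted gene or an olfactory or antigen receptor gene. Likeness was the root mean square distance between the 4 array values, each gene's own mean taken off, and it was 0.16, 0.20, 0.24 and 0.24 on the log2 scale, against a median of 0.72 over those genes. Dnah17, an axonemal dynein heavy chain gene, read -3.96 and -4.46 in STAP-2-/- colons against -3.17 and -2.79 in WT colons. Slc36a2, an amino acid transporter gene, read -2.92 and -2.82 in STAP-2-/- colons against -1.69 and -1.64 in WT colons. The distances for Socs3 were far larger than those given below for Socs1 and Cish, and 1 gene lay within 0.2 of Socs3.

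Other targets of STAT3 were measured on the same arrays. Of 21 listed targets, all tested, 16 were lower and 5 higher in STAP-2-/- colons, 0 passed the test, and 3 were lower with no overlap, a share near the 13.3% of all genes tested that were. The median genotype difference was -0.23, where that of all genes tested was -0.0068. Bcl3, which encodes a partner of NF-kB, read 3.15 and 2.89 in STAP-2-/- colons against 3.30 and 3.43 in WT colons, a difference of -0.35 (SE 0.16). Lbp, the gene of the lipopolysaccharide-binding protein, read -1.72 and -2.78 in STAP-2-/- colons against -1.41 and -1.50 in WT colons, a difference of -0.80 (SE 0.40). Osmr, the oncostatin M receptor gene, overlapped between the genotypes, at -1.23 and -0.67 in STAP-2-/- and -0.75 and 0.14 in WT colons.

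The targets with the largest pool differences were Reg3g and Reg3b, which encode antibacterial lectins, and Saa3, a serum amyloid gene. Reg3g read 1.55 in the STAP-2-/- pool 1 and 2.94 in the WT pool 1, against 5.22 in the STAP-2-/- pool 2 and 5.77 in the WT pool 2. Its mean pool difference was -3.25, that of Reg3b -2.72 and that of Saa3 -2.62, against -0.22 for Socs3. Over the 21 targets the median of the values with each gene's mean taken off was -0.096 and 0.010 on the STAP-2-/- arrays and -0.086 and 0.23 on the WT arrays. The same values of Socs3 were -0.62 and -0.72 on the STAP-2-/- arrays and 0.40 and 0.95 on the WT arrays. The plot of Socs3 beside its listed targets shows these profiles.

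**Figure D2:**
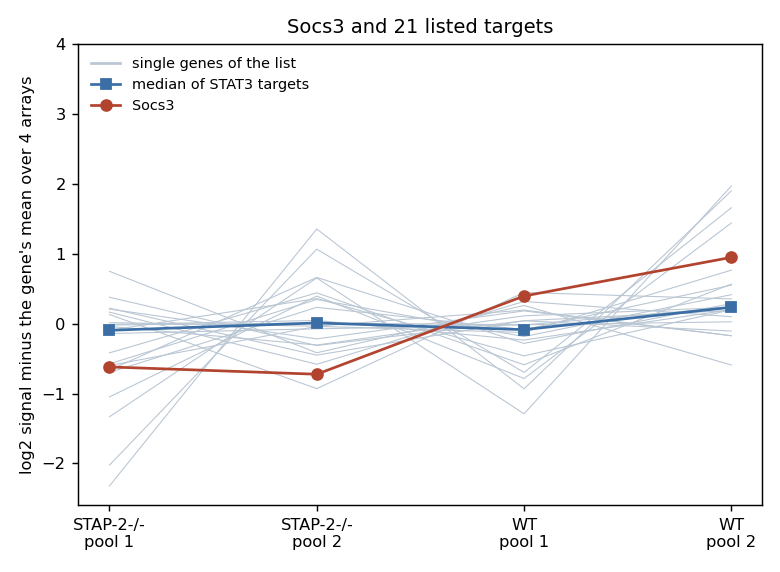
Profiles over the 4 arrays (x axis) of Socs3 with 21 STAT3 targets, as log2 signal minus each gene's mean over the arrays (y axis). Red circles are Socs3, blue squares the median of the list and thin lines its single genes; Socs3 lies at -0.62 and -0.72 on the STAP-2-/- arrays and at 0.40 and 0.95 on the WT arrays, while the list median stays between -0.096 and 0.23.

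Upstream of Socs3, the ligands and receptors that signal through gp130 were mixed. Of 17 listed genes 15 were tested, Il6 and Osm being too dim, and 4 were higher and 11 lower in STAP-2-/- colons, with 0 past the test and a median difference of -0.19. Il11ra1, a receptor gene for IL-11, read 2.98 and 2.43 in STAP-2-/- colons against 3.19 and 3.06 in WT colons. Il11 itself read -4.90 and -3.05 in STAP-2-/- colons against -4.72 and -2.16 in WT colons, with a pool difference of -2.20. In the list of the IL-10 family, G-CSF and leptin, 10 of 15 genes were tested, 3 higher and 7 lower, with a median of -0.081. Il22, a cytokine that acts on the epithelium through STAT3, read -5.38 and -6.50 in STAP-2-/- colons against -5.31 and -3.22 in WT colons. That is lower without overlap, by a difference of -1.67 (SE 0.86) that rests largely on the WT pool 2. Stat3 itself read 2.23 and 2.30 in STAP-2-/- colons against 2.35 and 2.61 in WT colons, a difference of -0.22 (SE 0.16).

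Markers of several cell types moved with genotype beside Socs3, and their part in the Socs3 difference was not tested. The summed level here is the sum over a list of the signal relative to the 75th percentile. All 7 adipocyte markers were measured, 6 were lower in STAP-2-/- colons, and the sum was 41.4 to 60.3 in STAP-2-/- and 63.4 to 97.2 in WT colons. Adipocyte markers differed by pool too. All 7 had a higher mean in pool 1, 4 of them without overlap, where 36.0% of all genes tested were. Their median absolute difference was 0.76 by pool and 0.62 by genotype. All 7 fibroblast markers were lower in STAP-2-/- colons, with a sum of 71.1 to 78.0 in STAP-2-/- and 82.2 to 104.3 in WT colons. Without Dcn, the brightest, the fibroblast sums overlapped, at 32.5 to 33.1 in STAP-2-/- and 32.6 to 53.6 in WT colons. All 8 enteric neuron and glia markers were lower, with a sum of 2.38 to 2.80 in STAP-2-/- and 3.11 to 3.37 in WT colons. All 8 smooth muscle markers were lower, with a sum of 404.2 to 411.3 in STAP-2-/- and 469.5 to 474.2 in WT colons. The adipocyte, neuron and glia, and smooth muscle sums stayed apart without the brightest gene of each. Lower without overlap were 3 of 7 adipocyte, 3 of 7 fibroblast, 6 of 8 neuron and glia and 3 of 8 smooth muscle markers. Among all genes tested 13.3% were. The marker sums of the other lists overlapped between the genotypes for B and plasma cells (56.7 to 59.3 in STAP-2-/- and 54.7 to 60.3 in WT colons) and for neutrophils (44.5 to 57.1 in STAP-2-/- and 53.0 to 58.5 in WT colons). They did not overlap for macrophages (11.58 to 11.64 in STAP-2-/- and 10.6 to 11.3 in WT colons), T cells (2.77 to 4.24 in STAP-2-/- and 2.47 to 2.66 in WT colons) or colon epithelium (374.6 to 402.8 in STAP-2-/- and 345.3 to 370.9 in WT colons). Without Cd4, the brightest, the T cell sums overlapped, at 1.49 to 3.06 in STAP-2-/- and 1.35 to 1.64 in WT colons. Singly, all 6 T cell markers tested were higher in STAP-2-/- colons, 3 of them without overlap. Of 5 macrophage and monocyte markers tested, 4 were higher, 2 of them without overlap, and 1 was lower. Higher without overlap were 11.5% of all genes tested. The epithelium sums overlapped without Car1, their brightest gene, at 237.0 to 273.0 in STAP-2-/- and 228.4 to 277.5 in WT colons. Taken singly, all 7 epithelium markers overlapped between the genotypes, 4 higher and 3 lower in STAP-2-/- colons. Endothelial sums overlapped, at 3.50 to 4.10 in STAP-2-/- and 3.77 to 4.27 in WT colons. No defining marker of the adipocyte, fibroblast, neuron and glia, or smooth muscle list was below background.

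Socs1 showed the largest pool difference of the family and almost no difference between the genotype means. It inhibits JAKs directly and is induced by interferon-gamma. Its processed signal was 872 in STAP-2-/- pool 1 and 1229 in WT pool 1, against 3235 in STAP-2-/- pool 2 and 2059 in WT pool 2. Both pools numbered 1 were below both pools numbered 2, and the STAP-2-/- arrays held both the lowest and the highest value. The mean log2 level was -1.09 in pool 1 and 0.18 in pool 2, a difference of -1.27, or 2.41-fold higher in pool 2. That difference was -1.85 in STAP-2-/- and -0.69 in WT colons. Between genotypes, Socs1 averaged -0.46 ± 1.31 in STAP-2-/- and -0.45 ± 0.49 in WT colons (SD, n = 2 each), a difference of -0.012 (SE 0.72). Its interval of -2.03 to 2.01 spans a 4-fold change in either direction, so these arrays leave the genotype difference of Socs1 unresolved. Between both pools 1 it was -0.59, and between both pools 2 it was 0.57.

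The promoter of Socs1 is shown for a repeat of the kind that interferon regulatory factors bind, searched on both strands as GAAA, any 2 bases and GAAA again. In the 250 bases before its start, on the minus strand at chr16:10785537-10785786, 2 overlapping matches ran together from -83 to -68, and they are in capitals here.
Socs1: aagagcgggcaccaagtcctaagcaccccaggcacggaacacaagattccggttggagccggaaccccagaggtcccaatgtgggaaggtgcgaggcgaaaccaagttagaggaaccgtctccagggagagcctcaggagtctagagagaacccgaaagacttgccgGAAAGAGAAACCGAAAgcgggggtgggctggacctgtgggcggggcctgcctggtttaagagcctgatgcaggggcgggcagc
At least 1 match was found in 3.44% and at least 2 in 0.225% of the 32851 windows. The window of Socs1 held no match of TTCNNNGAA, the window of Socs3 none of the GAAA repeat, and that of Socs4 none of either.

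Ifng, the gene of interferon-gamma, which induces Socs1, read -6.71 and -4.08 in STAP-2-/- colons against -5.17 and -4.82 in WT colons, and was well above background on 3 of the 4 arrays. Of the 7 listed interferons and receptors 6 were tested, 1 was higher and 5 lower in STAP-2-/- colons, and the median genotype difference was -0.19. Ifngr2, a receptor subunit gene, read 2.65 and 2.60 in STAP-2-/- colons against 2.36 and 2.45 in WT colons.

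The nearest patterns to Socs1 were those of Padi2, Ddx43, Gfap and Cdk17, at distances of 0.047, 0.060, 0.087 and 0.091, and 55 genes lay within 0.2 of it. Padi2, an arginine deiminase gene, read -1.87 in STAP-2-/- pool 1 and -1.31 in WT pool 1, against -0.10 in STAP-2-/- pool 2 and -0.54 in WT pool 2.

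Beside Socs1, most T cell and neutrophil markers were lower in pool 1, while most B cell and macrophage markers overlapped between the pools. Their part in the Socs1 difference was not tested. Of 8 listed T cell markers 7 were measured, Cd247 being below background on all arrays, and their summed level was 2.77 in STAP-2-/- pool 1 and 2.47 in WT pool 1, against 4.24 in STAP-2-/- pool 2 and 2.66 in WT pool 2, so the pools overlapped. Without Cd4, the brightest of them, the sum was lower in pool 1 without overlap. It was then 1.49 in STAP-2-/- pool 1 and 1.35 in WT pool 1, against 3.06 in STAP-2-/- pool 2 and 1.64 in WT pool 2. Of 6 T cell markers tested, 5 had a lower mean in pool 1. For 3 of the 6 the pools did not overlap, all lower in pool 1, where 26.4% of all genes tested were. Of 8 neutrophil markers 7 were measured, Mmp8 being below background on all arrays. Their sum was 57.1 in STAP-2-/- pool 1 and 58.5 in WT pool 1, against 44.5 in STAP-2-/- pool 2 and 53.0 in WT pool 2, so it was higher in pool 1. It was carried by Csf3r, and without that gene it ran the other way, at 0.27 in STAP-2-/- pool 1 and 0.22 in WT pool 1, against 0.98 in STAP-2-/- pool 2 and 3.04 in WT pool 2. Of 5 neutrophil markers tested, 4 were lower in pool 1 without overlap, where 26.4% of all genes tested were. The remaining 1 was higher without overlap, where 36.0% were. Of the 7 B and plasma cell markers tested, 5 overlapped between the pools, 1 was higher and 1 lower in pool 1, and of 5 macrophage and monocyte markers tested 4 overlapped and 1 was lower in pool 1. Ptprc, the leukocyte surface phosphatase CD45, read -2.10 in STAP-2-/- pool 1 and -1.95 in WT pool 1, against -0.62 in STAP-2-/- pool 2 and -1.05 in WT pool 2.

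Socs2 and Socs6 followed the same order of arrays as Socs1, with smaller differences. Socs5 had that order too, and Socs4 and Socs7 had its reverse. How many of all genes tested had this order was not counted. Socs2 is a STAT5 target that restrains growth hormone receptor signalling. Its processed signal was 2568 in STAP-2-/- pool 1 and 2805 in WT pool 1, against 4279 in STAP-2-/- pool 2 and 3768 in WT pool 2. The pool difference was -0.53, made of -0.69 in STAP-2-/- and -0.37 in WT colons, or 1.45-fold higher in pool 2. The kept probe was spotted 10 times on each array, and the SD between its spots was 0.073 and 0.089 on the STAP-2-/- arrays and 0.063 and 0.041 on the WT arrays. That spread is of repeat spots on 1 array and does not measure the spread between pools. By genotype Socs2 averaged 0.52 ± 0.49 in STAP-2-/- and 0.58 ± 0.26 in WT colons (SD, n = 2 each), a difference of -0.063 (SE 0.31) with an interval of -0.93 to 0.80.

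Socs6, on chromosome 18, binds the receptor KIT and insulin receptor substrates. Its processed signal was 636 in STAP-2-/- pool 1 and 695 in WT pool 1, against 1110 in STAP-2-/- pool 2 and 916 in WT pool 2. The pool difference was -0.55, or 1.47-fold higher in pool 2, with -0.76 in STAP-2-/- and -0.34 in WT colons. The genotype difference was -0.015 (SE 0.32), with an interval of -0.92 to 0.89.

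The other probes of both genes gave the same order of arrays as the kept ones, as the plot of probes shows. Both further Socs2 probes gave pool differences of -0.66 and -0.63, and the dimmer Socs6 probe gave -0.62. The genotype difference was 0.011 and 0.037 by the further Socs2 probes, against -0.063 by the kept one.

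**Figure D3:**
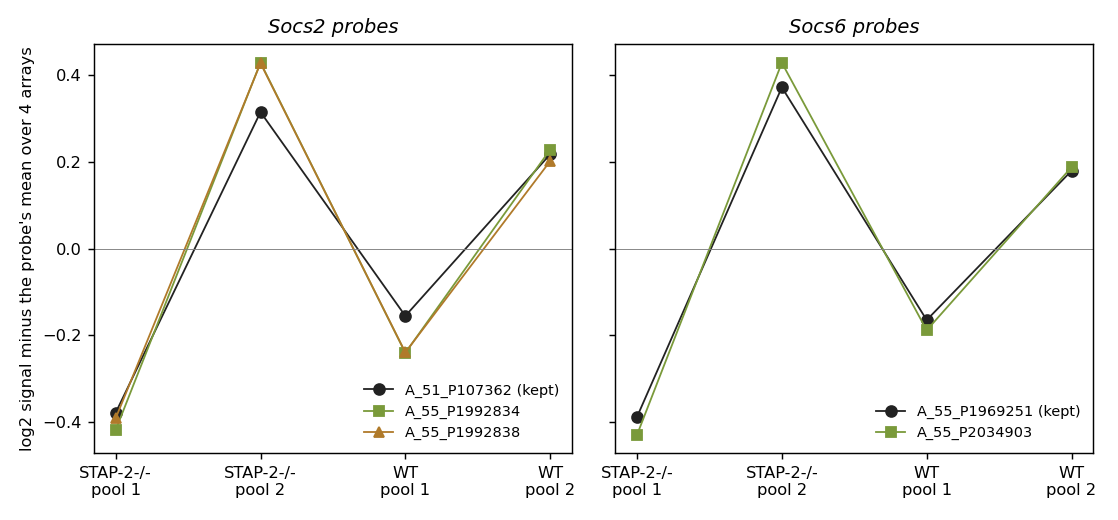
Log2 signal minus the probe's mean over 4 arrays (y axis) on each array (x axis) for the 3 probes of Socs2 and the 2 probes of Socs6, with 1 line per probe. Each line is lowest in STAP-2-/- pool 1 and highest in STAP-2-/- pool 2.

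Cish differed little between any of the arrays. It is a STAT5 target that restrains IL-2 and T cell receptor signalling. Its processed signal was 3961 in STAP-2-/- pool 1 and 3222 in WT pool 1, against 3455 in STAP-2-/- pool 2 and 3129 in WT pool 2, so the highest array was 1.23-fold above the lowest. By genotype it averaged 0.68 ± 0.17 in STAP-2-/- and 0.55 ± 0.068 in WT colons (SD, n = 2 each), a difference of 0.13 (SE 0.15) with an interval of -0.30 to 0.56. By pool it averaged 0.70 in pool 1 and 0.53 in pool 2, a difference of 0.17. Its nearest patterns were those of Clk2, Asl, Wdyhv1 and Pank4, at distances of 0.0061 to 0.0088, and 7927 genes lay within 0.2 of it.

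Just after the annotated start of Cish, on the plus strand at chr9:107296656-107296681 in build GRCm38.p6, 2 matches of TTCNNNGAA lay from 1 to 9 and from 12 to 20. They are in capitals here, for comparison with the 1 match of Socs3.
Cish: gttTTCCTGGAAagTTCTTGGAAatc
At least 2 matches of TTCNNNGAA were found in 0.457% of the 32851 windows.

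The STAT5 axis was mixed as well. Of 12 listed STAT5 targets 11 were tested, 5 were higher and 6 lower in STAP-2-/- colons, and the median genotype difference was -0.0033. Pim1, a kinase gene, read -3.10 in STAP-2-/- pool 1 and -2.72 in WT pool 1, against -1.77 in STAP-2-/- pool 2 and -2.15 in WT pool 2. That is the order of arrays of Socs2, whereas Ccnd2, the gene of cyclin D2, was higher in pool 1, at 3.25 in STAP-2-/- pool 1 and 2.80 in WT pool 1, against 2.23 in STAP-2-/- pool 2 and 2.04 in WT pool 2. Of 30 listed genes of cytokines and receptors that act through STAT5 or STAT6, 22 were tested, 8 were higher and 14 lower in STAP-2-/- colons, with a median of -0.13. Il15 read -1.51 and -1.33 in STAP-2-/- colons against -1.86 and -1.95 in WT colons, a difference of 0.49 (SE 0.14), with a limma adjusted p of 1.0. Ghr, the growth hormone receptor gene, read 0.32 and 0.19 in STAP-2-/- colons against 0.67 and 0.55 in WT colons, a difference of -0.36 (SE 0.14).

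Socs4, Socs5 and Socs7, the members with long amino-terminal regions apart from Socs6, went in both directions between the pools. Socs4 and Socs5 are known to act on the epidermal growth factor receptor, and Socs7 binds the adaptor Nck. Socs4 had a processed signal of 672 in STAP-2-/- pool 1 and 487 in WT pool 1, against 403 in STAP-2-/- pool 2 and 396 in WT pool 2. Its pool difference was 0.57, or 1.48-fold higher in pool 1, with 0.78 in STAP-2-/- and 0.35 in WT colons. Its genotype difference was 0.16 (SE 0.33), with an interval of -0.77 to 1.08.

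Socs7 had a processed signal of 5263 in STAP-2-/- pool 1 and 4586 in WT pool 1, against 4098 in STAP-2-/- pool 2 and 4422 in WT pool 2. Its pool difference was 0.25, with 0.40 in STAP-2-/- and 0.11 in WT colons, and its genotype difference was -0.045 (SE 0.19) with an interval of -0.59 to 0.50. Socs5 had a processed signal of 507 in STAP-2-/- pool 1 and 535 in WT pool 1, against 615 in STAP-2-/- pool 2 and 576 in WT pool 2. It varied least of the 8 members over the 4 arrays, by 1.18-fold from the lowest to the highest, with a pool difference of -0.15 and a genotype difference of -0.082 (SE 0.15).

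Between the pools 3 members were higher in pool 1 without overlap, where 36.0% of all genes tested were, and 4 were lower without overlap, where 26.4% were. In both directions together these were 7 of 8 members, against 62.4% of all genes tested. The absolute pool difference exceeded the absolute genotype difference for the same 7 members, and for 69.4% of all genes tested. The gap between the STAP-2-/- pools exceeded that between the WT pools for 7 of 8 members, Socs3 being the exception, and for 69.1% of all genes tested. The median absolute pool difference was 0.39 over the members and 0.22 over all genes tested, and the median absolute genotype difference was 0.072 over the members and 0.12 over all genes tested. For Socs1, 364 genes had a larger absolute pool difference, and for Socs4, Socs6 and Socs2 the numbers were 2342, 2460 and 2612.

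**Figure D4:**
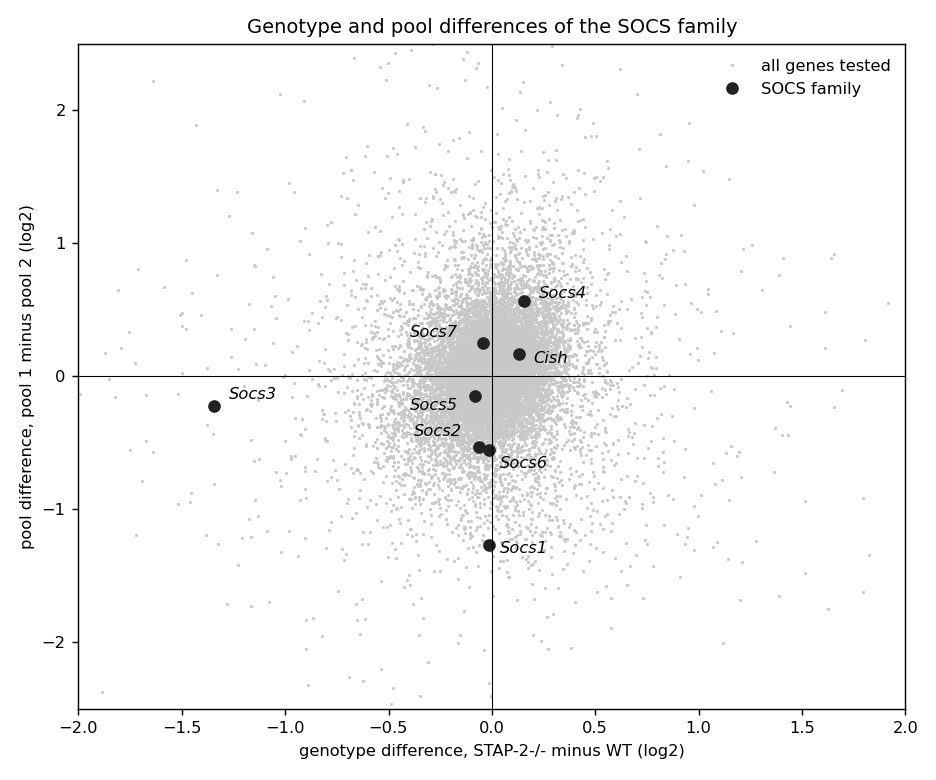
Difference of STAP-2-/- minus WT (x axis, log2) against the difference of pool 1 minus pool 2 (y axis, log2) for the 8 SOCS family genes (black) and all genes tested (grey, 76 of them outside the axes). Socs3 lies at -1.34 by genotype and -0.22 by pool, and Socs1 at -0.012 by genotype and -1.27 by pool.

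The genotype differences of Socs1, Socs2 and Socs4 to Socs7 changed sign when certain single arrays were left out. Without STAP-2-/- 1 they changed sign for Socs1 (0.91), Socs2 (0.28), Socs4 (-0.23), Socs5 (0.037) and Socs6 (0.36). Without WT 2 they changed sign for Socs1 (0.33), Socs2 (0.12), Socs4 (-0.020) and Socs6 (0.16). For Socs7 the sign changed without STAP-2-/- 2 (0.16) and without WT 1 (0.0075). Cish kept its sign and ran from 0.011 without STAP-2-/- 1 to 0.25 without STAP-2-/- 2.

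Genes that work with the SOCS proteins or beside them had list medians near 0 by genotype, and 0 passed the test in any of these lists. All 9 ubiquitin ligase partners of the SOCS box were tested, 2 were higher and 7 lower in STAP-2-/- colons, with a median of -0.052. Eloc, the elongin C gene, read 2.80 and 2.77 in STAP-2-/- colons against 2.90 and 2.97 in WT colons, and Cul5, the cullin gene, read -2.09 and -1.76 in STAP-2-/- colons against -1.90 and -1.69 in WT colons. Of 26 other SOCS box genes 17 were tested, 5 were higher and 12 lower, with a median of -0.050. Wsb1, a WD40-repeat gene of that group, had a pool difference of -0.91, and Asb11, an ankyrin-repeat gene, one of 1.09.

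Of 13 other brakes on cytokine receptors 12 were tested, 8 were higher and 4 lower in STAP-2-/- colons, with a median of 0.091. Usp18, an interferon-induced brake on the type I interferon receptor, read -2.44 and -0.42 in STAP-2-/- colons against -2.36 and -2.16 in WT colons, so 1 STAP-2-/- array stood above the other 3 arrays. Ptpn11, the gene of the phosphatase SHP2 that binds the docking site of Socs3 on gp130, read 3.05 and 2.96 in STAP-2-/- colons against 3.24 and 3.16 in WT colons. Tyk2, a JAK gene that is not part of this list, had a pool difference of 0.77. All 10 growth factor receptors and adaptors that SOCS proteins bind were tested, 3 were higher and 7 lower, with a median of -0.086. Without overlap 2 were higher and 4 lower, where 11.5% and 13.3% of all genes tested were. The median absolute difference was 0.18, against 0.12 over all genes tested. In the ligase partner, other SOCS box and other brake lists, 0 and 2 of 9, 0 and 3 of 17, and 1 and 2 of 12 were higher and lower without overlap. Igf1r, an insulin-like growth factor receptor gene, read -0.40 and -0.24 in STAP-2-/- colons against -0.041 and 0.10 in WT colons. Kit, to which Socs6 binds, read 0.94 and 1.90 in STAP-2-/- colons against 1.28 and 1.54 in WT colons.

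**Figure D5:**
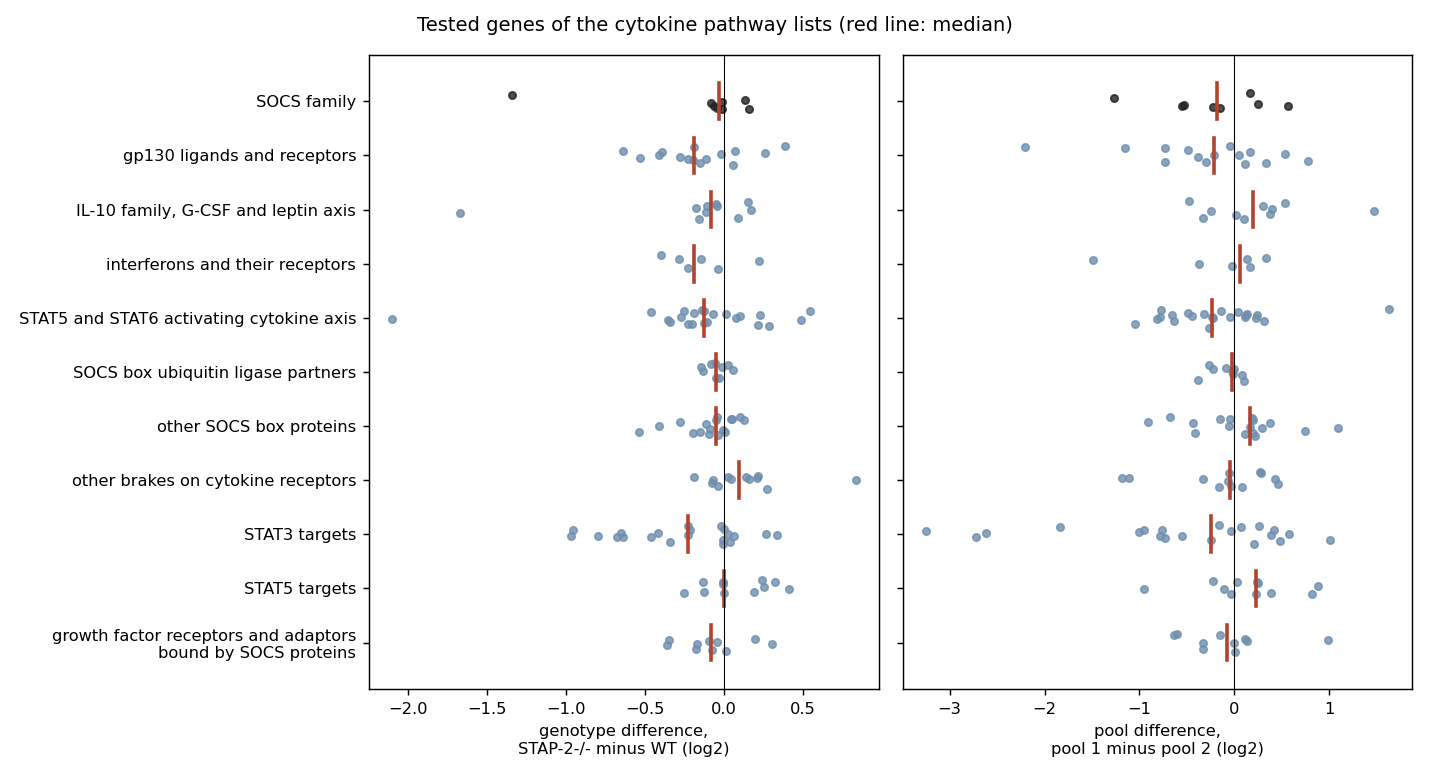
Genotype differences (left, STAP-2-/- minus WT, log2) and pool differences (right, pool 1 minus pool 2, log2) of the SOCS family and of the tested genes of 10 pathway lists (rows), with 1 point per gene and a red line at the median. The list medians by genotype run from -0.23 for STAT3 targets to 0.091 for other brakes on cytokine receptors, and Socs3 is the 1 SOCS point far from 0, at -1.34.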

How the data were processed

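Agilent Feature Extraction 10.7.1.1 made the scanner files, per the submitters' processing notes. Per the file headers, the deposited processed, median and background intensity values are of 1 colour and not normalized between arrays. The authors' deposited value table is a ratio, the processed signal over a constant per array (within 1% for 100% of the single-spot probes compared, at values of 0.1 or more), with column medians of 0.091 and 0.085 (STAP-2-/-) and 0.091 and 0.087 (WT); its scale is linear and not centred by gene. Control spots and outlier-flagged spots were left out and spots of a probe averaged. Of 39429 probes, 27427 were named by accession through a RefSeq table of GRCm38.p6, used for names only because the array annotation has another build. Genes well above background on both arrays of a genotype, with a value on all 4 arrays, were tested with limma 3.58.1 in R 4.3.3 with Benjamini-Hochberg adjustment, a fit also tested on simulated data. Summaries used pandas 2.3.3 and numpy 2.4.6 under Python 3.11.15, and plots matplotlib 3.10.9. Members, 10 pathway and 10 marker lists were chosen with earlier results of these data known. Besides the members, up to 3 genes per pathway list with the smallest genotype p and up to 3 with the largest pool difference could be named, and the 4 nearest patterns of Socs1, Socs3 and Cish. Stat3 and Tyk2 were named as well. No list was tested as a set, and pools were compared by values only. An item withheld for evaluation is not reported here.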

Additional observations from a re-analysis of the deposited data

How the results depend on the processing

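Over 14 alternatives Socs3 kept its direction and stayed short of the adjusted threshold. Its difference ran from -1.37 to -1.34 apart from the fits that left out an array (-1.62 to -1.07). Many of these settings could not test the direction. Those that changed only the genes tested or the variance returned the same -1.34. Keeping flagged spots did too, since no member spot was flagged. As the genotypes did not overlap for Socs3, leaving out an array cannot reverse its direction. Normexp background correction on the median spot intensity, the files holding no mean intensity, gave 1 gene past the adjusted threshold, Stap2 (adjusted p = 0.00510), and a Socs1 difference of 0.0046. The further Socs2 probes, tried after seeing the data, gave 0.011 and 0.037. With 1 array left out the difference ran from -0.94 to 0.91 for Socs1, -0.41 to 0.28 for Socs2, -0.23 to 0.55 for Socs4, -0.20 to 0.037 for Socs5, -0.40 to 0.36 for Socs6, -0.25 to 0.16 for Socs7 and 0.011 to 0.25 for Cish; fewer samples are the construction of these fits, and a lone array is assumed to vary like the others. The pool differences moved by less than the SD between the pool differences of the 2 genotypes under the alternatives tried: Socs1 from -1.34 to -1.20 and Socs4 from 0.47 to 0.57. At an unadjusted p of 0.05, 124 genes were higher and 201 lower in STAP-2-/- colons; normexp gave 65 and 250, the replicate number as a block 399 and 641, and leaving out an array 45 to 377 and 98 to 485. Deviations from the genotype means correlated by 0.596 over genes between arrays of equal number, but the labels do not say that a number is shared. With the replicate block 0 genes passed, and Socs3 had an SE of 0.21 and an adjusted p of 0.699.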
